A study of Mus musculus with 4 samples.

Results

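Mitochondrial ribosomal protein genes were followed through differentiation of C2C12 muscle cells and through knockdown of hnRNPL. They were taken as every entry whose symbol begins with Mrpl or Mrps and a digit. This gave 77 genes (48 Mrpl and 29 Mrps) among the 24850 named entries of the total RNA-seq tables, and 78 genes (49 Mrpl and 29 Mrps) among the 24992 entries of the polyA tables. The additional gene was Mrpl58, listed as Ict1 in the total RNA-seq tables. All reached an FPKM of 1 in each library, so none was lost to a filter at that level.

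C2C12 is an established mouse myoblast line that fuses into myotubes when growth medium is replaced by differentiation medium (DM, 2% horse serum). Total RNA depleted of rRNA was sequenced from myoblasts (MB, labelled DM -24 h) and from myotubes (MT, labelled DM 72 h, though the study's supplement gives another hour for an RNA-seq comparison of MT without naming the library), whereas polyA RNA was sequenced from cells kept for 48 h in DM after transfection with si-hnRNPL or with the scrambled control si-NC, at 100 nM and 24 h before DM. Each condition is 1 library and there are 4 in all. The libraries come from a single immortal line, the sources do not say whether they stem from separate cultures, and no difference given here has a replicate check or a p-value.

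The mitochondrial ribosome is built in the mitochondrial matrix from proteins encoded in the nucleus and rRNAs encoded in mitochondrial DNA. It translates the few mRNAs of the mitochondrial genome, whose products are membrane subunits of the respiratory chain and of ATP synthase. Its large subunit joins amino acids at the peptidyl transferase centre and threads the product through the exit tunnel, and its small subunit binds the mRNA and decodes it. Some of its proteins have bacterial homologs and others are found only in mitochondria.

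The tables give levels without read counts. The 95% interval of a member's FPKM had a median half-width of 3.53% of the value in MB, 4.41% in MT, 7.50% with si-NC and 8.80% with si-hnRNPL, which leaves the polyA comparison the less precise of the pair. These intervals, and those of the changes made from them, reflect counting and the assignment of fragments in a given library, not the spread between cultures. Hnrnpl, the target of the siRNA, measured 95.1 FPKM (92.7 to 97.5) with si-NC and 85.9 (83.1 to 88.7) with si-hnRNPL, a log2 change of -0.14 (-0.20 to -0.09) that did not reach 1.5-fold, so the mRNA of the target was little reduced in this library. Hnrnpl itself went from 111 in MB to 63.0 in MT. Of 6 myotube markers, all 6 were higher in MT than in MB, with a summed FPKM of 1306 against 13.6. The cycling markers Mki67 (62.2 in MB and 15.6 in MT), Ccnb1 (123 and 13.7) and Top2a (143 and 29.2) were lower. Of the myoblast markers, Myf5 was nearly level (13.8 and 13.6) and Myod1 was higher in MT (36.6 and 65.9). The 6 myotube markers were also higher in si-hnRNPL (2608 in sum) than in si-NC (1793). Acta1 (1537 against 1009) made up much of that sum, and Mb was nearly level (9.72 against 9.39). The study reports Mb as reduced by qRT-PCR after hnRNPL knockdown. The 5 myoblast and cycling markers summed to 168 against 210, with 4 lower. Markers of other cell types stayed at or below an FPKM of 0.612, and Alb was at 0 in every library.

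Promoters are shown for members on which the comparison of MT with MB turns, so that the sequences can be read beside the changes. They come from RefSeq (mouse build GRCm38.p6), whereas the gene positions given later are in mm9, the build of the FPKM tables. RefSeq promoters were matched by symbol for 69 of the 78 members. The stretch between Mrps11 and Mrpl46, whose start sites face each other 42 bp apart, runs from 30 bases inside one gene to 30 bases inside the other and is shown because both fell together. Mrpl12 had the largest fall, Mrps14 the largest value above 0, and Mrpl33 the highest FPKM in MT. The latter sequences run from 220 bases before the start site to the first 30 transcribed bases, 5′ to 3′ on the gene's strand. Capitals mark every match, on either strand, to the motifs searched: NRF1 (GCGCANGCG), ETS and GABP (CCGGAAGT), YY1 (AANATGGCG), SP1 (GGGCGG), the CCAAT box by its letters, the E-box CACGTG, a further E-box CAGCTG and the TATA box TATAAA. None of these contains another.
Mrps11 and Mrpl46, chr7:78783060-78783160 (+): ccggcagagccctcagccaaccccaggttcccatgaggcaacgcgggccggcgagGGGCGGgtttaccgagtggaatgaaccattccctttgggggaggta
Mrpl12, chr11:120484417-120484666 (+): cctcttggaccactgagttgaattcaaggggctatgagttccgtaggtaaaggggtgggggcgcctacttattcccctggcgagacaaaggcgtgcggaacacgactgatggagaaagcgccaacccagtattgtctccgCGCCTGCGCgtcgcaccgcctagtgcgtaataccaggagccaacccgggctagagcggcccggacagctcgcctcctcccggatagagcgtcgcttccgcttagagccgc
Mrps14, chr1:160194995-160195244 (+): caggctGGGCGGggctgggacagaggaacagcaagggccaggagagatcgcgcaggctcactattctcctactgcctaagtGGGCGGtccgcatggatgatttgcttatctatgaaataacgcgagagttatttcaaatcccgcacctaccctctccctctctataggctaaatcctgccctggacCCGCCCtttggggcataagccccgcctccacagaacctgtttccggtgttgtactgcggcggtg
Mrpl33, chr5:31613731-31613980 (+): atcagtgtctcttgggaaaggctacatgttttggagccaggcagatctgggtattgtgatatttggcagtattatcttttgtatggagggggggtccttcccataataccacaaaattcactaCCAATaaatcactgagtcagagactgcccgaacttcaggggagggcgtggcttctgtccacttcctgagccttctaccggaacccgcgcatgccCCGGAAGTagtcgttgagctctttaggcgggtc

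In the printed letters, Mrpl12 holds an NRF1 match, Mrps14 holds 3 SP1 matches, Mrpl33 holds an ETS and GABP match and a CCAAT, and the stretch shared by Mrps11 and Mrpl46 holds a single SP1 match. Over windows of 250 bases before and 50 after the start site, NRF1 matches stood in 21.3% of the 75 member promoters, in 6.25% of all 32851 promoters, and in 14.3% of the 10406 promoters of expressed genes (FPKM of 1 or more). For ETS and GABP the shares were 16% of member promoters, 3.89% of all and 8.71% of those of expressed genes. For YY1 they were 14.7%, 2.38% and 5.61%. The SP1 hexamer stood in 52% of member promoters, 35.7% of all and 65.1% of those of expressed genes, and TATAAA in 6.67%, 13.6% and 6.77%. In the same order, CCAAT stood in 40%, 37.4% and 37.9%, CAGCTG in 16%, 16.3% and 14.7%, and CACGTG in 9.33%, 7.15% and 10.4%. The median GC content was 58.7% for member promoters and 52.7% for all, and its part in these shares was not tested. The median log2 change in MT was -0.65 for the 16 genes with an NRF1 match and -0.68 for the 52 without, and -0.71 for the 12 with an ETS and GABP match against -0.68 for the 56 without. The gaps were widest for the E-box CACGTG, at -0.54 for 5 genes with it and -0.68 for 63 without, and for YY1, at -0.75 for 10 genes and -0.66 for 58. The match is a string of letters and says nothing of binding.

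Mitochondrial ribosomal protein genes were lower in MT than in MB almost throughout. Of 77 members, 50 fell by at least 1.5-fold and 0 rose. The median log2 change of FPKM + 1 was -0.68, with quartiles of -0.84 and -0.48 and a range of -1.43 to 0.10. Among all 10791 named genes at 1 FPKM or more in both libraries, the median was -0.23, 28.5% were lower by 1.5-fold and 11.9% were higher. The interval of the change lay below 0 for 73 members, above 0 for Mrps14, and held 0 for Mrpl1, Mrpl50 and Mrpl57, and it lay below 0 for 58.2% of all named genes. Here and below, a gene is said to have fallen or risen where it passed 1.5-fold. The members' share of the summed FPKM of named genes, small RNAs left out, was 1.03% in MB and 0.837% in MT. In bulk RNA, fewer cells of a type and less RNA per cell cannot be told apart.

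The size of this shift depends on the scale. The deposited values put all genes at a median of -0.23, with 1282 higher and 3079 lower. After both libraries were rescaled to the same sum the median of all genes was 0.11, with 2467 higher and 1588 lower, and the members stood at -0.33 with 12 lower. These 12 are 15.6% of the members against 14.7% of all genes, so on that scale the share past 1.5-fold was near the background, while 62 of 77 members were still below 0. The members' median minus that of all genes was -0.45 on the deposited scale and -0.44 after rescaling.

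**Figure D1:**
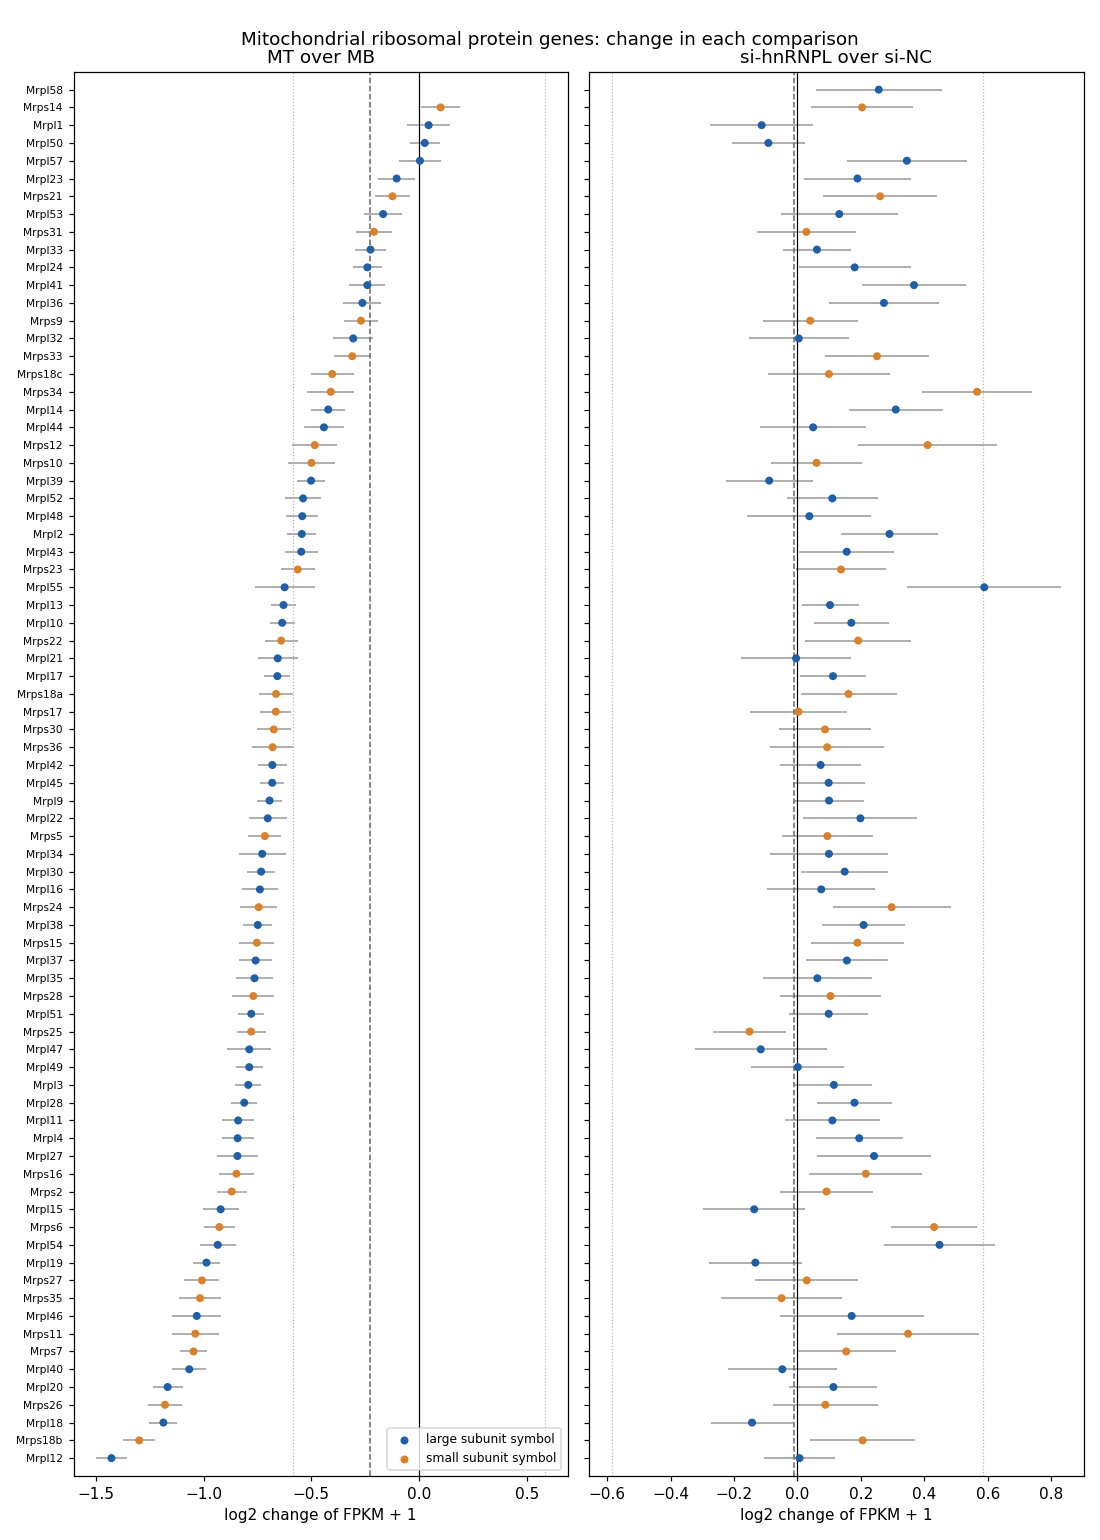
Log2 change of FPKM + 1 for each mitochondrial ribosomal protein gene, MT over MB on the left and si-hnRNPL over si-NC on the right, in the order of the left panel with Mrpl58 on top (no value on the left). Points are genes, blue for Mrpl and orange for Mrps, bars are intervals from the Cufflinks bounds, the dashed line is the median of all named genes and dotted lines mark 1.5-fold. On the left 73 of 77 points lie below 0, and on the right 67 of 78 lie above 0 but only Mrpl55 reaches the dotted line.

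The falls were led by a protein of the stalk. Mrpl12, the L7/L12 homolog that recruits translation factors to the ribosome (chromosome 11, 120345983 to 120350068), measured 85.2 FPKM (82.9 to 87.5) in MB and 31.0 (29.7 to 32.4) in MT, and fell by 1.43 on the log2 scale. Its polyA values were 68.7 in si-NC and 69.0 in si-hnRNPL. The MB and MT intervals are far apart, whereas those of the polyA libraries overlap. Mrps18b, a mammalian paralog of bacterial S18 (chromosome 17, 36047330 to 36053314), had 66.7 in MB, 26.5 in MT, 31.4 in si-NC and 36.4 in si-hnRNPL. Mrpl18, the uL18 homolog, had 92.6, 40.1, 52.0 and 47.0 in the same order. Mrps26, a protein of the small subunit with no bacterial homolog, had 59.8, 25.8, 28.3 and 30.2. All were lower in MT than in MB, with log2 changes of -1.30, -1.19 and -1.18 and no overlap of intervals. Mrpl20, the bL20 homolog, had 125 in MB and 55.0 in MT, a change of -1.17, but 32.6 and 35.4 in the polyA libraries.

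At the other end, 4 members were not lower in MT on the deposited scale. Mrps14, a protein of the small subunit head (chromosome 1, 162125391 to 162131317), measured 10.9 FPKM (10.4 to 11.5) in MB, 11.8 (11.2 to 12.3) in MT, 13.7 in si-NC and 16.0 in si-hnRNPL. Mrpl1, which forms the L1 stalk near the exit site of tRNAs, had 11.4 in MB and 11.8 in MT. Mrpl50 had 19.0 and 19.4, and Mrpl57 had 7.11 and 7.13. These are log2 differences of 0.10, 0.04, 0.03 and 0.00, none near 1.5-fold. Mrpl23, at the exit tunnel, came next with 62.5 and 58.1 (-0.10). After subtraction of length and GC bins the values of Mrps14 (-0.27) and Mrpl1 (-0.12) were below 0. With libraries rescaled to the same sum, 15 members were above 0, Mrpl23 (0.27) among them. When centred on the median of all named genes, 9 were.

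Large and small subunits had nearly the same median. The median change was -0.69 for Mrpl, with 31 of 48 lower by 1.5-fold, and -0.68 for Mrps, with 19 of 29 lower, a difference of -0.0079. Counts in this paragraph are on the deposited scale, where 28.5% of all named genes were lower by 1.5-fold. Symbols do not always give the subunit: Mrps30 and Mrps18a lie in the large subunit in structures of the mammalian mitochondrial ribosome, and Mrps36 belongs to the 2-oxoglutarate dehydrogenase complex. Mrps30 measured 27.1 FPKM in MB and 16.6 in MT (-0.67), Mrps18a 57.4 and 35.9 (-0.66), and Mrps36 53.8 and 33.2 (-0.68). All of these fell, with changes near the median of the members. Assigned by structure, the medians were -0.68 for 50 genes of the large and -0.73 for 26 of the small subunit. The difference between subunits was then 0.049, and genes are not replicates, so it was not tested. The 46 members with a bacterial homolog had a median of -0.72 with 32 lower, and the 31 others -0.67 with 18 lower.

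By position in the ribosome, falls were seen in most regions of the large subunit on the deposited scale. The counts below stand beside 28.5% of all named genes that were lower by 1.5-fold. With libraries rescaled to the same sum, 12 of 77 members were lower by 1.5-fold (15.6%, against 14.7% of all genes). Members were not counted by region on that scale. At the peptidyl transferase centre, 3 of 4 members fell, Mrpl27 from 51.1 to 28.0 (-0.84), Mrpl3 from 51.0 to 29.0 (-0.79) and Mrpl16 from 34.9 to 20.5 (-0.74), while Mrpl2 had 58.4 and 39.8 (-0.54). At the stalk and its base all 3 fell, Mrpl11 from 15.7 to 8.33 (-0.84) and Mrpl10 from 46.6 to 29.7 (-0.64) beside Mrpl12. Of 6 members of the central protuberance, which bridges the subunits, 4 fell. These were Mrpl18, Mrpl40 (52.2 to 24.4, -1.07), Mrpl46 (23.5 to 11.0, -1.03) and Mrpl38 (43.9 to 25.7, -0.75), whereas Mrpl48 and Mrpl52 had changes of -0.54 each.

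The rim of the exit tunnel and the head of the small subunit held members with smaller changes. At the tunnel 4 of 8 fell, namely Mrpl47 (-0.79), Mrpl22 (-0.70), Mrpl45, which anchors the ribosome at the inner membrane (-0.68), and Mrpl17 (-0.66). Mrpl39, Mrpl44, Mrpl24 and Mrpl23 ranged from -0.50 to -0.10. In the head 3 of 8 fell (37.5%, against 28.5% of all named genes), and the median of the 8 was -0.41. Those that fell were Mrps7 from 64.5 to 30.7 (-1.05), Mrps35 from 31.7 to 15.2 (-1.02) and Mrps24 from 39.7 to 23.3 (-0.74). The intervals of 7 of the 8 lay below 0, as did those of all 8 tunnel members. The remaining head members were Mrps10 (-0.50), Mrps33 (-0.31), Mrps9 (-0.27), Mrps31 (-0.21) and Mrps14. With 8 genes or fewer in each region, these medians are descriptions.

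**Figure D2:**
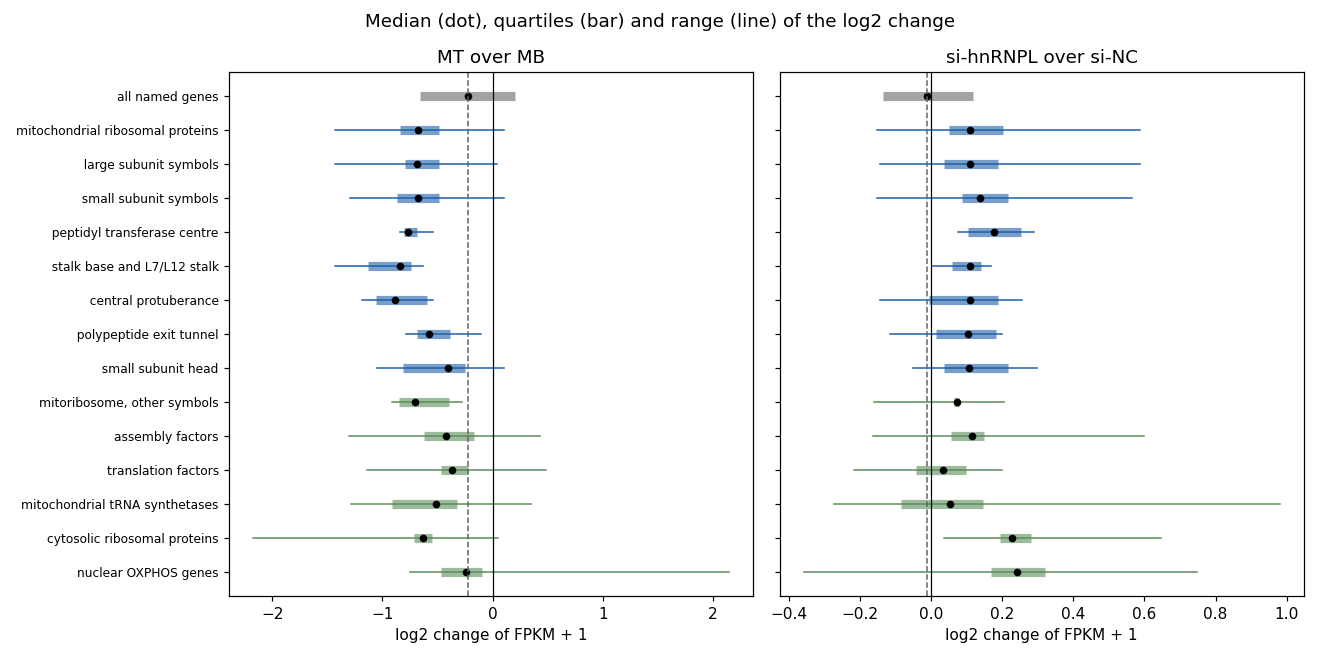
Log2 change of FPKM + 1 by gene list in both comparisons, with the median as a dot, the quartiles as a bar and the range as a line (the range of all named genes is left out). Blue marks mitochondrial ribosomal proteins and their regions, green other lists, and the dashed line the median of all named genes, which the members undercut by 0.45 in MT.

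Other genes of mitochondrial translation were counted in the same way, against the 28.5% of all named genes that were lower by 1.5-fold. The 6 mitochondrial ribosomal proteins with other symbols had a median of -0.70 in MT, with 3 lower by 1.5-fold, Chchd1 (87.0 to 45.6), Dap3 (16.5 to 8.67) and Ict1 (41.4 to 22.7), the rescue factor listed as Mrpl58 in the polyA tables. Assembly factors had a median of -0.42, with 7 of 20 lower, led by the GTPase Noa1 (12.5 to 4.49). Of 13 translation factors, 3 were lower, Tsfm, Tufm and Gfm1, the elongation factors, and the median was -0.37. Of 17 mitochondrial tRNA synthetases 6 were lower, with a median of -0.52. Genes encoded by mitochondrial DNA, the rRNAs among them, were not analysed here.

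Cytosolic ribosomal proteins gave a closely similar picture, with a median of -0.63 and 54 of 83 lower by 1.5-fold, against 28.5% of all named genes. Nuclear genes of oxidative phosphorylation did not. Their median was -0.24, near that of all genes, and 0.13 after rescaling to the same sum. On the deposited scale 7 of 75 (9.33%) were lower by 1.5-fold. Only Cox7a1, a muscle isoform of a cytochrome c oxidase subunit, was higher (1.17 to 8.60). Most changes were small but downward, with 63 of 75 (84.0%) below 0, against 63.7% of all named genes. The respiratory chain genes and the genes for the ribosome that translates their mitochondrial partners thus had median log2 changes of -0.24 and -0.68.

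The order of levels was largely kept. The median FPKM of the members was 40.7 in MB and 25.7 in MT, with 69 and 68 of 77 above the median of all expressed genes. The Spearman correlation of the levels over the 77 genes was 0.95 between MB and MT, as a description of genes within a library pair. Mrpl52 of the central protuberance (137), Mrpl33 (127) and Mrpl20 (125) were highest in MB, and Mrpl33 (108), Mrps21 (107) and Mrpl52 (94.1) in MT. Mrps25 was lowest in both, with 6.99 and 3.66, next to Mrpl57 (7.11) and Mrpl35 (7.43) in MB and to Mrpl35 (3.96) and Mrpl17 (4.56) in MT. Neighbours in this order were rarely separated, since the intervals overlapped for 68 of 76 neighbouring pairs in MB and 64 of 76 in MT. The levels thus ran over a 19.6-fold range in MB and a 29.6-fold range in MT, far wider than the changes between them.

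In the polyA libraries Mrpl33 (249 in si-NC and 260 in si-hnRNPL), Mrpl52 (189 and 204) and Mrpl13 (135 and 145) were highest, and Mrpl35 was lowest (3.44 and 3.64), next to Mrpl57, Mrpl19 and Mrpl17. The median was 26.7 in si-NC and 31.2 in si-hnRNPL, and the Spearman correlation between them was 0.99. Between MT and si-NC it was 0.91, and single genes differed by -0.74 (Mrpl20) to 1.69 (Mrps25) on the log2 scale. MT and si-NC differ in RNA selection, in platform, in time in DM and in siRNA transfection, which cannot be told apart.

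**Figure D3:**
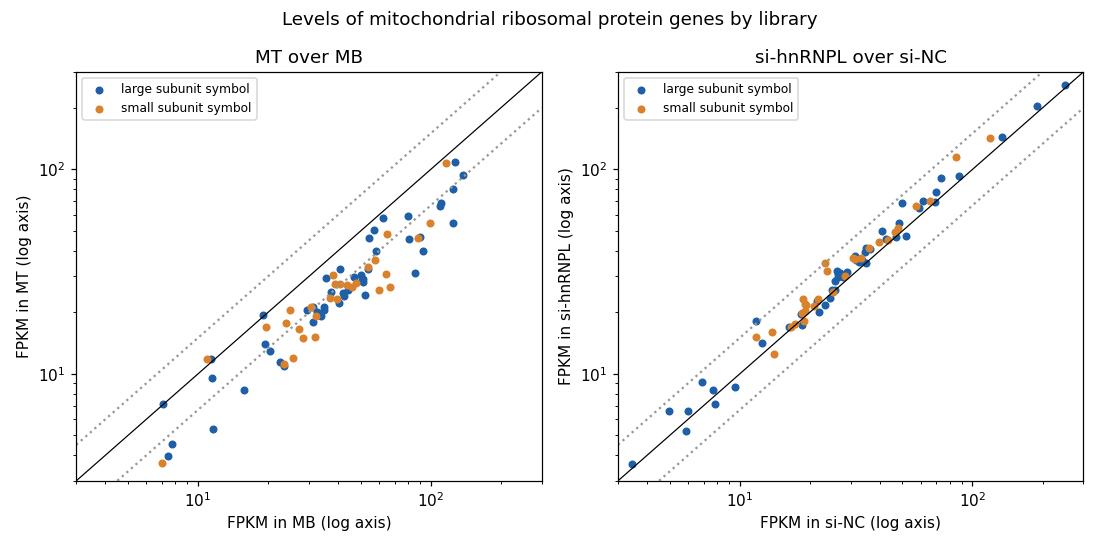
FPKM of each mitochondrial ribosomal protein gene on log axes, MB against MT on the left and si-NC against si-hnRNPL on the right. Each point is a gene, the solid line marks equal values and the dotted lines 1.5-fold in FPKM. On the left the cloud lies below the solid line with medians of 40.7 and 25.7, and on the right it hugs the line with medians of 26.7 and 31.2.

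Many members lay head to head with another gene. In mm9, 26 of 76 members with an annotated strand had a divergent partner whose start site lay within 1000 bp, and for 22 (28.9%) that partner was expressed at 1 FPKM or more in MB and MT. The share over 9931 named genes was 12.7%. One pair joined the subunits: Mrps11 (chromosome 7, 85928017 to 85937874) measured 25.5 FPKM in MB and 11.9 in MT, and Mrpl46 (85920227 to 85927975), with the promoter stretch printed above, had 23.5 and 11.0. Both started and ended at nearly the same level and fell by 1.04 and 1.03 on the log2 scale. In the polyA libraries Mrps11 went from 11.7 to 15.2 and Mrpl46 from 12.4 to 14.1, and the levels were again close.

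Partners outside the family varied more widely than the members they face, and those named here were picked for extreme values. Of 20 such partners, 17 were below 0, 8 fell by 1.5-fold and 1 rose, with a median of -0.54, where 63.7% of all named genes were below 0 and 28.5% fell. Ncapd2, a condensin subunit facing Mrpl51, went from 33.0 to 5.87 (-2.31) while Mrpl51 went from 50.7 to 29.1 (-0.78). Eme1, a subunit of a structure-specific nuclease facing Mrpl27, went from 16.1 to 2.92 (-2.12), and Mtbp, facing Mrpl13, from 25.4 to 8.22 (-1.52). In the opposite direction, Pnpla7, a lysophospholipase facing Mrpl41, rose from 2.34 to 5.07 (0.86) while Mrpl41 had 11.5 and 9.60 (-0.24). The Spearman correlation of member and partner over the 20 pairs was 0.38. Members with an expressed partner had a median of -0.76 and the 54 others -0.68.

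**Figure D4:**
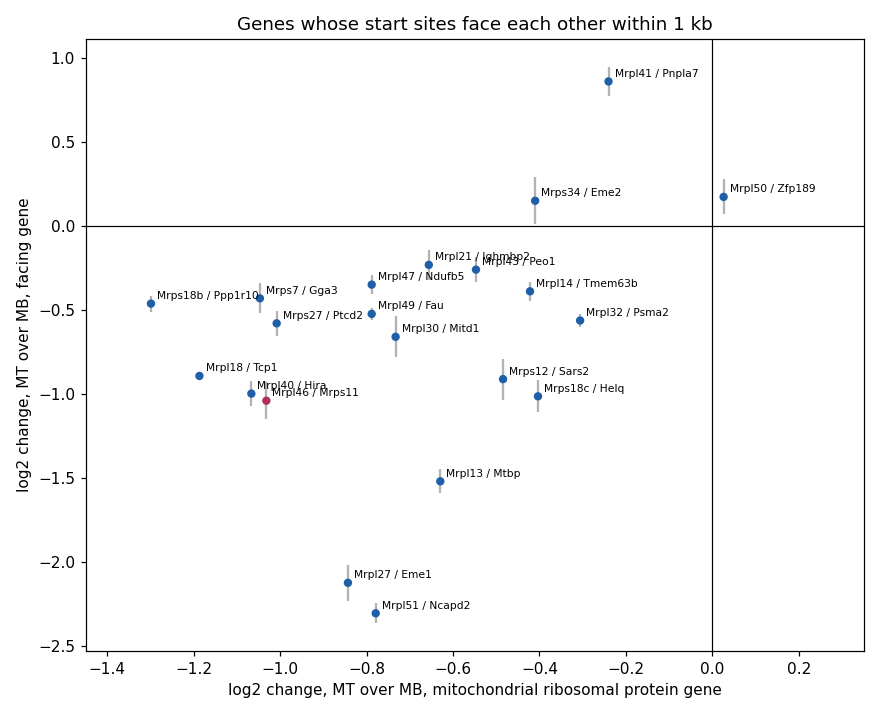
Log2 change in MT over MB of each mitochondrial ribosomal protein gene (horizontal) and of the gene whose start site faces it within 1 kb (vertical), for partners at 1 FPKM or more in both. Vertical bars are the partners' intervals, and the red point is the pair of Mrpl46 and Mrps11. The members span a narrow range, whereas the partners run from -2.31 (Ncapd2) to 0.86 (Pnpla7).

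With si-hnRNPL, mitochondrial ribosomal protein genes stayed close to their level in si-NC. Of 78 members only Mrpl55 passed 1.5-fold upward and 0 passed it downward, against 1.11% of 11090 named genes higher and 0.739% lower. The median log2 change was 0.11, with quartiles of 0.05 and 0.20 and a range of -0.15 to 0.59, and 67 of 78 values were above 0. For all named genes the median was -0.011. The interval lay above 0 for 34 members, below 0 for 2 and held 0 for 42, and over all named genes it lay above 0 for 20.8% and below 0 for 26.7%. Mrpl had a median of 0.11 and Mrps of 0.14, a difference of -0.027 that was not tested.

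Mrpl55, a mitochondria-specific protein of the large subunit (chromosome 11, 59015988 to 59019637), rose from 11.7 FPKM (10.3 to 13.2) with si-NC to 18.1 (15.8 to 20.5) with si-hnRNPL, a log2 change of 0.59. In the total RNA it had fallen from 20.5 in MB to 12.9 in MT. Mrps34, a small subunit protein, had 23.3 and 35.0 (0.57), just past 1.5-fold in FPKM itself but not in FPKM + 1. It was followed by Mrpl54 (49.9 and 68.4, 0.45), Mrps6 (85.3 and 115, 0.43) and Mrps12 of the decoding centre (23.7 and 31.8, 0.41). The intervals of all 5 lay above 0. Mrps12 (chromosome 7, 29524660 to 29526800) lies 69109 bp from Hnrnpl on the same chromosome. The locus of Mrps6 overlaps that of Slc5a3 over 29138 bp, so the assignment of fragments there is uncertain.

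Lowest in si-hnRNPL were Mrps25 (14.1 in si-NC and 12.6 in si-hnRNPL, -0.15), Mrpl18 (52.0 and 47.0, -0.14), Mrpl15 (9.58 and 8.63, -0.14), Mrpl19 (5.86 and 5.26, -0.13) and Mrpl47 (21.9 and 20.1, -0.12). The interval lay below 0 only for Mrps25 and Mrpl18, and no value of the 5 approached 1.5-fold. Mrps25 overlaps Nr2c2 over 3536 bp. By region, the medians were 0.18 at the peptidyl transferase centre, 0.11 at the stalk, the central protuberance, the tunnel and the small subunit head, and Mrpl1 stood at -0.11. After subtraction of length and GC bins the medians of the stalk (-0.10), the central protuberance (-0.08) and the tunnel (-0.01) were below 0, and Mrpl1 was at 0.01.

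The direction of these small values followed the length and base composition of the transcripts. Over 76 members the log2 change had a Spearman correlation of -0.52 with transcript length and of 0.55 with GC content, and over 9860 protein-coding genes -0.45 and 0.43. Members are short, with a median of 1213 bases against 3032 for all. Mrpl54 (604 bases) and Mrps25 (6073 bases) stood near opposite ends of both orders. After the median of genes of like length and GC was subtracted, the members' median was 0.0098 with 41 above 0 and 35 below, and 26 of 76 values turned their sign. Mrpl55 was then at 0.36 and Mrps34 at 0.41. With both libraries rescaled to the same sum the median was 0.016 and 0 members were higher, and all genes divided into 72 higher and 159 lower in place of 123 and 82. The part of length, GC, library scale and the higher myotube markers of the si-hnRNPL library in these values was not tested.

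**Figure D5:**
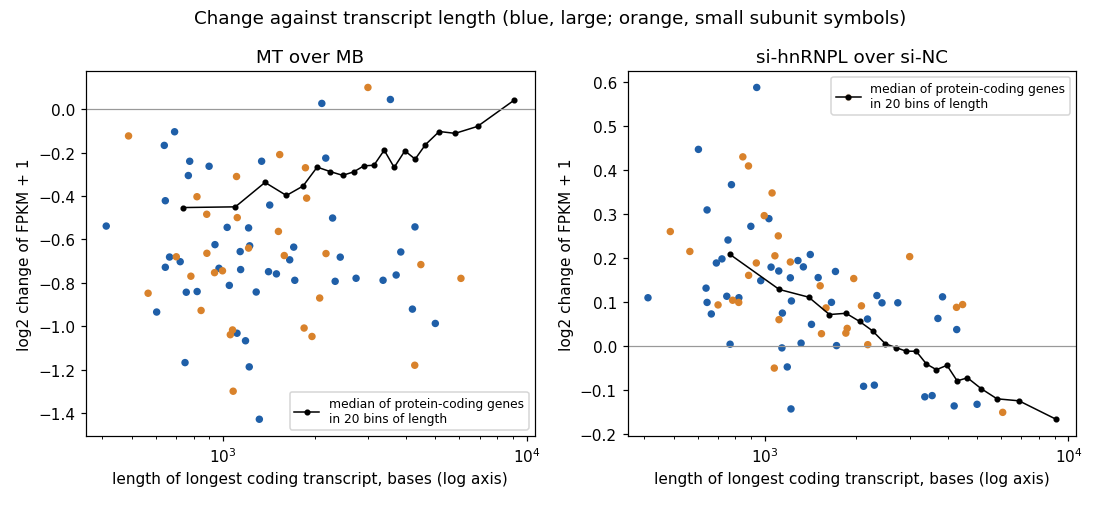
Log2 change of FPKM + 1 against the length of the longest coding transcript (log axis) for mitochondrial ribosomal protein genes (points, blue for Mrpl and orange for Mrps), with the median of protein-coding genes in 20 bins of length as a black line. On the right the black line runs from 0.21 in the shortest bin to -0.17 in the longest and the points follow it, whereas on the left most points lie below it.

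In MT over MB the same correction took away part of the shift. The correlation with length was -0.08 over the members and 0.17 over all protein-coding genes. After subtraction the members' median was -0.49, with 30 of 76 (39.5%) lower by 1.5-fold, against 27.9% of protein-coding genes, and 72 below 0. The members' median minus that of all genes was then -0.25. Mrpl12 stood at -1.33, Mrps26 at -1.13 and Mrps18b at -1.05.

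The medians of the other lists were also above 0 in si-hnRNPL, though after rescaling those of translation factors (-0.06), mitochondrial tRNA synthetases (-0.03) and mitochondrial ribosomal proteins with other symbols (-0.02) were below it. Cytosolic ribosomal proteins had a median of 0.23 with 83 of 83 above 0 and 1 (1.20%) past 1.5-fold (Rpl13). Nuclear oxidative phosphorylation genes had 0.24 with 75 of 77 above 0 and 3 (3.90%) past 1.5-fold, among them Ndufb2 and Cox5b. Over all named genes 47.8% were above 0 and 1.11% were higher by 1.5-fold. Assembly factors had a median of 0.12, translation factors 0.04 and mitochondrial tRNA synthetases 0.05. The medians of these lists are given without the length and GC correction. In the same comparison the bin of shortest protein-coding transcripts (median 766 bases) had a median of 0.21. Assembly factors and mitochondrial tRNA synthetases each held a single gene past 1.5-fold. The former was Malsu1 (11.8 to 18.5), which keeps the free large subunit from joining the small. The latter was Lars2 (78.7 to 156), the leucyl-tRNA synthetase. Lars2 had by far the highest FPKM of the listed synthetases in every library, with 337 in MB and 265 in MT. Whether all fragments assigned to Lars2 came from that gene was not tested, so its rise is given as a value only.

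Across both comparisons, 64 of 77 members were below 0 in MT and above 0 in si-hnRNPL, 9 were below 0 in both, Mrps14 and Mrpl57 were above 0 in both, and Mrpl1 and Mrpl50 were above 0 in MT only. The first pattern held for 29.0% of 10077 named genes, and given that most members were below 0 in MT and most above 0 in si-hnRNPL, its count follows largely from these. The Spearman correlation of both changes was 0.13 over the members and 0.13 over all these genes. No library is shared between the comparisons, but they differ in RNA selection, in platform, in time in DM and in siRNA transfection.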

How the data were processed

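Trimmed reads under 36 bp were dropped by the authors and the others aligned to mm9 (TopHat, version 2.0.13). Levels were deposited as FPKM, each with a 95% interval, from Cufflinks (version 2.1.1). The gene annotation is not given in the sources used here. The total RNA libraries were strand-specific, and the polyA libraries were made with another kit and platform.

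Changes were computed as log2 of the ratio of FPKM + 1. Genes that reached 1 FPKM in both libraries were kept. A gene was called at 1.5-fold, the threshold of the study, but here on FPKM + 1. The interval of a change came from both deposited intervals. With 1 library per condition no test was run. Named were the 5 largest and the 5 smallest changes, the 3 highest and 3 lowest levels, the members of each region, Mrps30, Mrps18a, Mrps36 and Hnrnpl. Divergent partners and the motifs were chosen with the data at hand. The members and lists were chosen with earlier results of these data known.

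Lengths, GC and start sites came from an annotation of mm9. For the length and GC correction, medians of protein-coding genes were subtracted in 20 bins of each, in 3 rounds. Other pseudocounts, filters, folds and scales were tried as alternatives. Calculations were done in Python (3.11.15) with scipy 1.17.1, pandas 2.3.3 and numpy 2.4.6, figures in matplotlib 3.10.9, and the scripts were tested on simulated data.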

Additional observations from a re-analysis of the deposited data

How the results depend on the processing

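No paired analysis was possible because each condition has 1 library. For MT over MB, where the median of the members was -0.68 and 50 were lower, the median and number lower were -0.45 and 20 when centred on the median of all named genes, -0.33 and 12 when libraries were rescaled to the same sum, and -0.49 and 30 after subtraction of length and GC bins. These are 26.0%, 15.6% and 39.5% of the members, against 18.3% and 14.7% of all named genes and 27.9% of protein-coding genes. At a fold change of 2, 11 were lower (14.3%, against 13.1% of all genes), so at this fold and after rescaling the members' share was near the background. The first of these follow from the construction, since centring and rescaling shift all genes by nearly the same amount, and the subtraction removes what genes of like length and GC share. For si-hnRNPL over si-NC the number higher was 2 with a pseudocount of 0.01, and 0 after rescaling, at a fold change of 2 and after subtraction of length and GC bins. Rescaling put the median FPKM at 35.7 in MB and 29.3 in MT. The members' median kept its sign in both comparisons under all alternatives run. In si-hnRNPL, however, it went from 0.11 to 0.016 on rescaling. After subtraction of length and GC bins it was 0.0098 with 41 members above 0 and 35 below, so the sign there says little. In MT the median of all named genes turned from -0.23 to 0.11 on rescaling, and that of oxidative phosphorylation genes from -0.24 to 0.13. In si-hnRNPL the median of tRNA synthetases was 0.05, and -0.06 over genes at 5 FPKM or more. Among single members, the sign in MT turned for 5 under centring, 11 under rescaling and 7 of 76 under the length and GC correction, and in si-hnRNPL for 1, 19 and 26. Pseudocounts of 0.1 and 0.01 turned none.

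With 1 library per condition, the spread between cultures is unknown and no call has a replicate check. In the polyA libraries the median half-width of the interval of a change was 0.16 on the log2 scale. Members that overlap another locus, 11 of 77 in the total RNA tables, may share fragments with it.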

Other observations

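The total RNA-seq tables list 11 assembled transcript units that lie inside 4 of the member genes. Mrpl48 held 7 of them, Mrps23 held 2, and Mrpl10 and Mrpl24 held 1 each. Their levels were low, with a median FPKM of 0.0814 in MB and 0.213 in MT, and 0 of the 11 passed 1.5-fold. The units in Mrpl10 (2.98 in MB and 2.77 in MT) and Mrpl24 (3.01 and 4.11) were the only ones with an FPKM of at least 1. The unit in Mrpl24 had a log2 change of 0.35 where its gene had -0.24, and the one in Mrpl10 -0.08 where its gene had -0.64.

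Members were spread over 17 chromosomes, with 11 on chromosome 11, 8 on chromosome 17 and 7 on chromosome 6.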
